A study of Mus musculus with 17 samples.

Results

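The hepatocyte nuclear factors of the HNF4, FOXA and ONECUT families were followed in bulk RNA-seq of mouse pancreatic islets. They comprised 7 genes, *Hnf4a*, *Hnf4g*, *Foxa1*, *Foxa2*, *Foxa3*, *Onecut1* and *Onecut2*, which were chosen by name, with earlier results of these data known. Every member was found, as 7 of 78239 gene identifiers in a first table and 7 of 73212 in a second. The study asked how *Pax4*, a paired-box factor needed to form β cells, acts in adult islets under metabolic stress. The first table held 12 male C57BL6/N mice, either wildtype or homozygous for an R200H substitution in endogenous *Pax4* that matches the human R192H variant (*Pax4* R192H mice, littermates of the wildtype). There were 3 mice of each genotype at 12 weeks of age on a standard chow diet (SCD) and 3 of each at 16 weeks of age after 4 weeks of a high-fat diet (HFD). Diet therefore changed together with age, and their effects cannot be told apart. The second table held 5 male mice at 20 weeks of age after 8 weeks of HFD, 2 controls with floxed *Pax4* and no Cre and 3 *Pax4* βiKO mice, in which floxed *Pax4* is removed by tamoxifen-induced Pdx1-CreERT2. Both of these groups received tamoxifen at 7 to 9 weeks of age. The *Pdx1* promoter that drives the Cre is active in β cells and in some other islet cells, and since the controls carried no Cre, loss of *Pax4* and presence of Cre cannot be told apart.

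HNF4α and HNF4γ are nuclear receptors that bind DNA as dimers, and *HNF4A* is mutated in a form of monogenic diabetes of the young. FOXA1, FOXA2 and FOXA3 are forkhead proteins, often called pioneer factors because they can bind closed chromatin, and FOXA2 acts upstream of *Pdx1* in the pancreas. ONECUT1, also named HNF6, and ONECUT2 are cut-homeodomain proteins of liver and of pancreatic progenitor and duct cells. In β cells these factors form a cross-regulated network that acts on genes such as *Slc2a2*, which encodes the glucose transporter GLUT2.

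The libraries held 24268150 to 42679673 counts in the first table, of which 2 identifiers without a name in the annotation took 36.2 to 53.3%, and 28618787 to 31887499 in the second. Islet hormone genes were present in every library. Levels are given as CPM, the usual count scaled to a common library size with TMM factors. *Sst* of δ cells was at 528.7 to 781.6 CPM, *Ppy* of PP cells at 760.5 to 2271 CPM and *Gcg* of α cells at no less than 3857 CPM in the first table. *Pax4* itself was listed at 0 in all 17 libraries, so neither genotype could be checked on it. Some libraries carried markers of other cell types. The summed level of 14 intestinal epithelium genes was 366 CPM in *Pax4* R192H mouse 1 on SCD and 191 CPM in *Pax4* R192H mouse 1 on HFD, against 42.7 to 78.3 CPM in the other 10 mice of the first table and 112 to 128 CPM in the second. Of these 14 genes 1 and 0 were listed at 0 in the 2 high libraries and 2 to 11 in the other 10. *Vil1*, 1 of the 14, alone was at 39.1 to 76.1 CPM in the first table and 105 to 122 CPM in the second. The mean log2 CPM of the 14 genes was 2.938 and 1.905 in the 2 high libraries and −0.973 in *Pax4* R192H mouse 2 on HFD. It was −2.74 to −2.31 in the other 9 mice of the first table. In the second table it was −0.932 in *Pax4* βiKO mouse 1 and −2.19 to −1.83 in the others. The summed level of 15 acinar genes was 81660 CPM in *Pax4* R192H mouse 1 on HFD, 29270 and 30050 CPM in the other 2 mice of that group, and 10740 to 21240 CPM in the other 9 mice. In the second table it was 87390 CPM in control mouse 1 and 66800 CPM in *Pax4* βiKO mouse 1, against 13730 to 19700 CPM in the other 3, and no acinar gene was at 0 in any library. These libraries were kept, and values with and without them, or with the marker level as a covariate, are given below where they bear on a member. The acinar covariate, the mean log2 CPM of the 15 genes, was 8.73 to 10.08 in *Pax4* R192H mice on HFD. It was 7.28 to 8.21 in the other 9 mice of the first table. In comparisons with that group, the effects of group and acinar covariate therefore cannot be told apart.

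The promoters of 5 of the 7 members, in 8 windows, were found in the RefSeq promoter table of build GRCm38.p6. *Hnf4g* and *Onecut2* were not in it. The 250 bases before the start are shown for both starts of *Hnf4a*, because the deposited row adds transcripts from both, and for the members with the highest and the lowest listed level of these islets, *Foxa2* and *Foxa1*. Capitals mark the letters of a FOXA motif (TGTTTAC), ONECUT motifs (ATCGAT or ATCAAT) or an HNF4 motif (CAAAGTCCA) on either strand, and no window shown held more than 1 of them.
Hnf4a, upstream start, chr2:163506607-163506856, plus strand: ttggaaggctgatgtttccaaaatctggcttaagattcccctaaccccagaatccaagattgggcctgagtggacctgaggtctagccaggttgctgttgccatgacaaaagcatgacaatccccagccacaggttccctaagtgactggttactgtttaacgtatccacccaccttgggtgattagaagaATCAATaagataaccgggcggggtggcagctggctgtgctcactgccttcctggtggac
Hnf4a, downstream start, chr2:163546905-163547154, plus strand: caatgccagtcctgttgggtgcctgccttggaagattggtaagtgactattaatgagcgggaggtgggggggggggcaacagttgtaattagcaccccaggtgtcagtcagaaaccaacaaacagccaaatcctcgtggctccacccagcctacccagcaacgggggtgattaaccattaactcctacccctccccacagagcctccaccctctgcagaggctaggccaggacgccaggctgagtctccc
Foxa2, upstream start, chr2:148046970-148047219, minus strand: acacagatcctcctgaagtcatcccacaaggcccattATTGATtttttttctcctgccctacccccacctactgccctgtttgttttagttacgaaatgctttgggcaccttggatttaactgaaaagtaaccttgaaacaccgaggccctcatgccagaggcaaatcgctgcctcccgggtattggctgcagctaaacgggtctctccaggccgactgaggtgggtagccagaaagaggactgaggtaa
Foxa1, chr12:57546112-57546361, minus strand: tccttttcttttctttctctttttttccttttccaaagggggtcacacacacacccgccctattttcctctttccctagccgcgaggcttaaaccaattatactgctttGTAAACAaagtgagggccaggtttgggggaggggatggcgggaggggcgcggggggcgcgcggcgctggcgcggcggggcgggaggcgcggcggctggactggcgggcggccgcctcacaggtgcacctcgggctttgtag

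The upstream window of *Hnf4a* held ATCAAT 59 bases before the start, and its downstream window held none of these letters. The window of *Foxa1* held the FOXA motif on the other strand and that of *Foxa2* held ATCAAT on the other strand. The windows of the other 2 *Foxa2* starts and those of *Foxa3* and *Onecut1* held none. Among all 32817 windows of the same length, 3.16% held TGTTTAC, 0.728% ATCGAT, 6.73% ATCAAT and 0.384% CAAAGTCCA. The letters ATCAAT were added after the windows had been read. A match is a description of the letters and not a bound site.

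Compared per length, *Foxa2* was the highest of the 7 genes in every mouse. On the scale of CPM per kb of exon, its mean level over the 12 mice of the first table was 15.6 ± 2.91 (SD), followed by *Foxa3* at 3.10 ± 0.526, *Hnf4a* at 2.12 ± 0.391 and *Hnf4g* at 1.31 ± 0.358. *Onecut2* stood at 0.0877 ± 0.0444, *Onecut1* at 0.0303 ± 0.0360 and *Foxa1* at 0.000672 ± 0.00233. The ranges of *Foxa2* and *Foxa3* did not overlap, nor did those of *Hnf4g* and *Onecut2*. *Foxa3* and *Hnf4a* had overlapping ranges, with *Foxa3* higher in 11 of 12 mice, and *Hnf4a* exceeded *Hnf4g* in 12 of 12 although their ranges overlapped. The order was the same in the second table, where *Foxa2* was at 18.7 ± 1.81 and *Foxa3* at 5.99 ± 0.367 CPM per kb (SD, n = 5). The 2 tables were scaled separately, so their levels are not compared with each other.

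**Figure D1:**
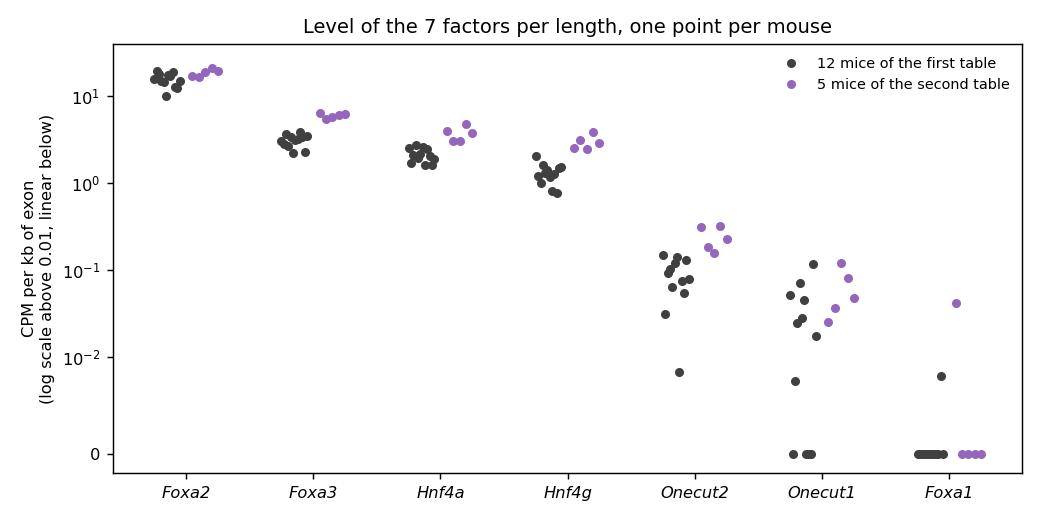
Level of each factor in CPM per kb of exon in every mouse (12 of the first table in dark grey, 5 of the second in purple), on an axis that is logarithmic above 0.01 and linear below it. *Foxa2* is highest in every mouse, and *Foxa1* is at 0 in all but 1 mouse of each table.

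*Hnf4a*, on chromosome 2 (163506808 to 163572910, plus strand, GRCm38), is a member of the nuclear receptor pair that is best known from liver, gut and β cells. Its level was 9.80, 7.80 and 9.15 CPM in wildtype and 13.4, 9.42 and 10.5 CPM in *Pax4* R192H mice on SCD. On HFD it was 12.6, 7.88 and 11.8 CPM in wildtype and 12.1, 8.22 and 10.2 CPM in *Pax4* R192H mice. All 4 groups overlapped, and the highest value of the 12 was in *Pax4* R192H mouse 1 on SCD, the library with the highest intestinal marker sum. In each of the 4 groups, also those of wildtype mice, mouse 1 was highest and mouse 2 lowest. A gene was called changed at a Benjamini-Hochberg adjusted p under 0.05 over all genes tested together with a log2 fold change beyond 0.5 in either direction. In the genotype comparison on SCD the *Hnf4a* log2 fold change was 0.32 (SE 0.21, 95% interval −0.13 to 0.76, edgeR adjusted p = 1.0), and it was 0.17 without the *Pax4* R192H mouse of each diet with the highest intestinal sum. On HFD it was −0.08 (SE 0.21, interval −0.53 to 0.37, adjusted p = 0.900). The genotype effects on the 2 diets differed by −0.40 (SE 0.29, adjusted p = 0.660). None of these differences passed the test. The antisense gene *Hnf4aos*, which overlaps the upstream part of the locus, was listed at 0 to 7 counts, against 196 to 617 counts for *Hnf4a*.

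*Hnf4g*, the second receptor of the family (chromosome 3, 3508030 to 3658052, plus strand), was at a lower level. It measured 2.06, 3.89 and 4.03 CPM in wildtype and 4.22, 3.48 and 3.74 CPM in *Pax4* R192H mice on SCD. On HFD it measured 3.07, 2.12 and 3.39 CPM in wildtype and 5.44, 3.19 and 2.65 CPM in *Pax4* R192H mice. The groups overlapped on both diets. The highest mouse of each *Pax4* R192H group was again mouse 1, with the raised intestinal markers and, on HFD, the highest acinar markers of the table. The log2 fold change of *Pax4* R192H against wildtype was 0.19 on SCD (interval −0.48 to 0.87) and 0.39 on HFD (SE 0.32, interval −0.29 to 1.07, adjusted p = 0.601). The HFD value was 0.04 without the 2 mice, and −0.30 with the acinar marker level as a covariate, so its direction depended on that covariate. The part of other cell types in the *Hnf4a* and *Hnf4g* levels was not tested further. In bulk islets, fewer cells of a type and less RNA per cell cannot be told apart.

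**Figure D2:**
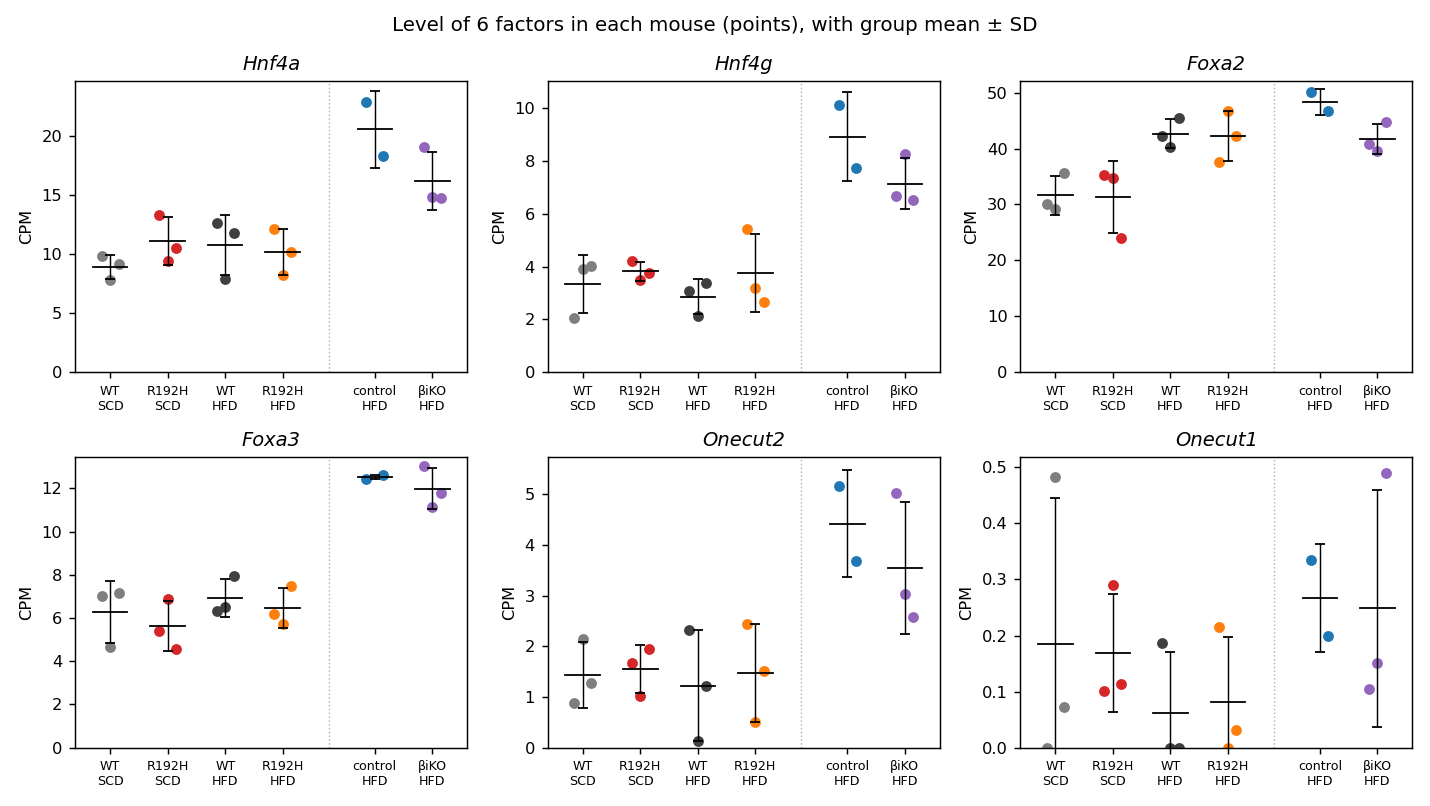
CPM of 6 factors in every mouse (points), with the mean and SD of each group (lines and bars); the dotted line separates the 2 tables, which were scaled separately. *Foxa2* lies between 24.0 and 35.7 CPM in the 6 SCD mice and between 37.7 and 46.8 CPM in the 6 HFD mice of the first table, and for the other factors shown there, groups that share a diet or a genotype overlap.

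**Figure D3:**
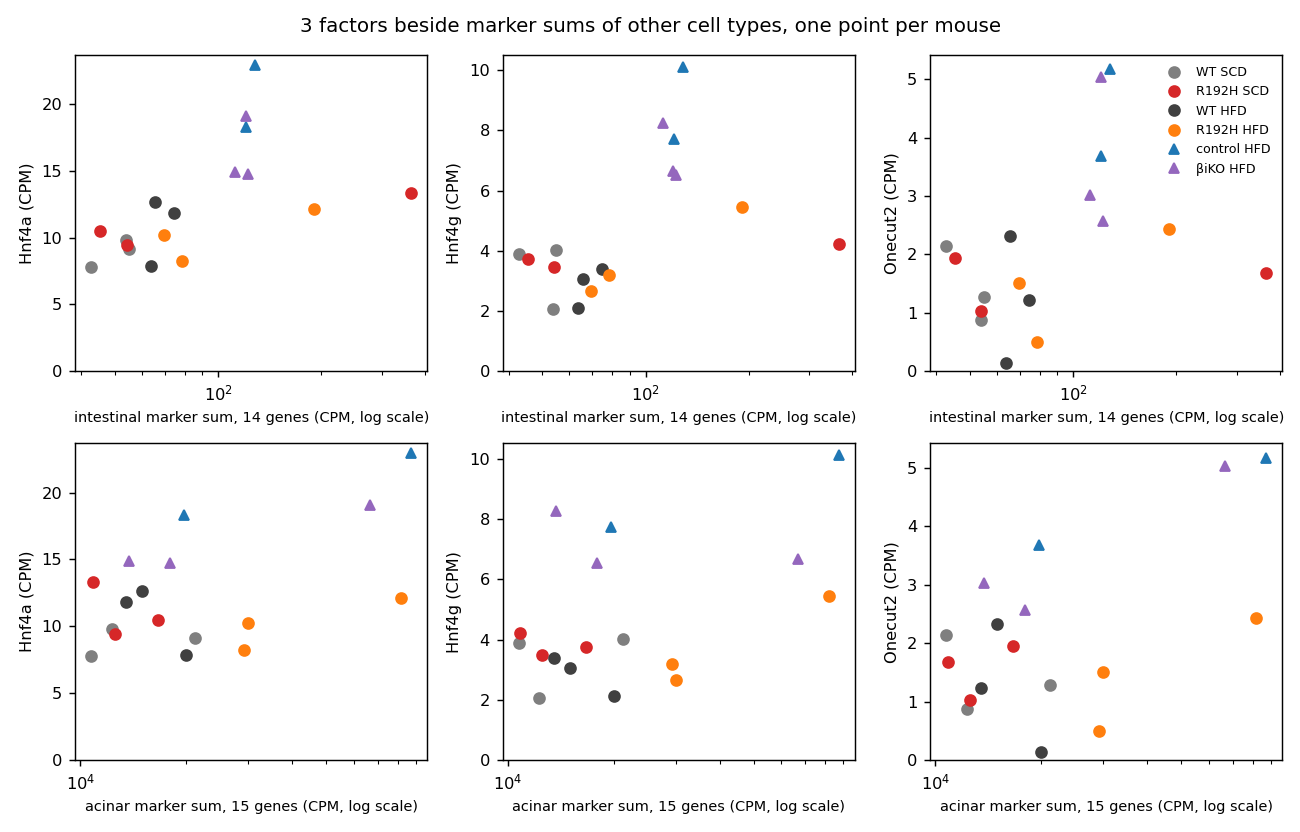
*Hnf4a*, *Hnf4g* and *Onecut2* in CPM against the summed CPM of 14 intestinal (top) and 15 acinar (bottom) marker genes, on logarithmic marker axes, one point per mouse (circles for the first table, triangles for the second). The *Pax4* R192H mice at 366 CPM (SCD) and 191 CPM (HFD) of intestinal markers hold the highest *Hnf4a* value of their groups. So does mouse 1 of every other group, with wildtype mouse 1 at only 53.9 CPM (SCD) and 65.7 CPM (HFD) of intestinal markers.

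*Foxa2*, the forkhead factor upstream of *Pdx1* (chromosome 2, 148042877 to 148046969, minus strand), had a higher level in every HFD mouse than in any SCD mouse of either genotype. On SCD it was at 30.0, 29.2 and 35.7 CPM in wildtype and 35.3, 34.7 and 24.0 CPM in *Pax4* R192H mice. On HFD it was at 42.2, 40.4 and 45.5 CPM in wildtype and 37.7, 46.8 and 42.3 CPM in *Pax4* R192H mice. The diets did not overlap, and within a diet the genotypes did. Of all genes tested, 6.53% separated the diets in this way over the 12 mice, 3.39% with every HFD mouse higher. The group means were 31.6 ± 3.52 and 42.7 ± 2.62 CPM for wildtype on SCD and HFD, and 31.3 ± 6.38 and 42.2 ± 4.54 CPM for *Pax4* R192H (SD, n = 3 each). The log2 fold change of HFD against SCD was 0.43 in wildtype (SE 0.15, interval 0.10 to 0.76, adjusted p = 0.207) and 0.43 in *Pax4* R192H (SE 0.15, interval 0.10 to 0.76, adjusted p = 0.0696). Neither passed the adjusted threshold of 0.05, in comparisons that called 0.371% and 15.7% of all genes tested. In *Pax4* R192H mice the value was 0.27 without mouse 3 on SCD, the lowest of the 12, and 0.69 with the acinar marker level as a covariate.

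Because both genotypes gave the same size, a contrast averaged over the genotypes was added after these values had been seen. *Foxa2* then differed by 0.43 between the diets (SE 0.11, interval 0.20 to 0.66, adjusted p = 0.0141, edgeR). It passed the adjusted p but stayed under the fold threshold of 0.5, in a contrast that called 13.7% of all genes tested. With DESeq2 the difference was 0.42 (adjusted p = 0.00454). With the acinar marker level as a covariate it was 0.57 and no longer passed (adjusted p = 0.0758), and without the 2 *Pax4* R192H mice of high intestinal markers it was 0.53 (adjusted p = 0.0248). The summed level of 7 β cell genes, which include the insulin genes, was 43280 to 57060 CPM on SCD and 63930 to 107900 CPM on HFD, without overlap. The mean log2 CPM of the same 7 genes overlapped between the diets, at 10.30 to 10.68 and 10.42 to 11.09. Their part in the *Foxa2* difference was not tested.

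Between the genotypes, *Foxa2* differed by −0.01 on SCD (interval −0.34 to 0.32) and by −0.02 on HFD (SE 0.15, interval −0.34 to 0.31, adjusted p = 0.978). The interaction of genotype and diet was 0.00 in size at this rounding, with an interval of −0.47 to 0.46.

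*Foxa3*, the forkhead gene otherwise known mainly from liver and gut (chromosome 7, 19013284 to 19023538, minus strand), was at 4.64 to 7.17 CPM in wildtype and 4.58 to 6.87 CPM in *Pax4* R192H mice on SCD. On HFD it was at 6.32 to 7.94 CPM in wildtype and 5.71 to 7.50 CPM in *Pax4* R192H mice. All of these ranges overlapped. The diet contrast averaged over genotypes was 0.17 (SE 0.15, interval −0.15 to 0.50, adjusted p = 0.444). Its log2 fold change between genotypes was −0.15 on SCD (interval −0.61 to 0.31) and −0.10 on HFD (interval −0.56 to 0.36).

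*Foxa1*, the third forkhead gene (chromosome 12, 57540628 to 57546916, minus strand), was listed at 0 counts in 11 of 12 mice of the first table and in 4 of 5 of the second. Wildtype mouse 2 on SCD had 1 count and *Pax4* βiKO mouse 1 had 4. For counting error only, a count of 0 allows a level of up to 0.0724 to 0.126 CPM in the first table and 0.0907 to 0.112 CPM in the second, taking 3 counts as the floor. Whether the listed zeros, of *Foxa1* as of *Pax4*, mean that the gene was not expressed was not tested. It was also listed at 0 in the *Pax4* R192H mouse of each diet with the highest intestinal marker sum. No fold is given for it.

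*Onecut2*, a cut-homeodomain factor (chromosome 18, 64340020 to 64400987, plus strand), was detected in every mouse at 4 to 145 counts. It stood at 0.876, 2.15 and 1.28 CPM in wildtype and 1.68, 1.03 and 1.95 CPM in *Pax4* R192H mice on SCD. On HFD it stood at 2.32, 0.137 and 1.22 CPM in wildtype and 2.43, 0.504 and 1.51 CPM in *Pax4* R192H mice. The HFD mice of a single group thus spanned most of the range of the gene, and the genotypes overlapped. Its log2 fold change between genotypes was 0.10 on SCD (SE 0.71, interval −1.42 to 1.62) and 0.27 on HFD (SE 0.71, interval −1.27 to 1.80, adjusted p = 0.907). These intervals are the widest of the 5 tested members, and a change of more than 2-fold in either direction would lie inside them. The HFD value was −0.37 with the acinar covariate and −0.28 to 1.10 with 1 mouse left out, so its direction changed. The summed level of 7 markers of duct, a cell type that expresses ONECUT factors, was 127 to 135 CPM in *Pax4* R192H mice on HFD against 79.4 to 110 CPM in the other 9 mice. The mean log2 CPM of the same markers overlapped, at 1.12 to 1.61 against 0.208 to 2.19. Their part in the *Onecut2* level was not tested.

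*Onecut1*, which encodes HNF6 (chromosome 9, 74861921 to 74891781, plus strand), was near the floor. It had 0 to 18 counts in the 12 mice of the first table, with 4 at 0, and 3 to 16 counts in the 5 of the second. Its highest counts were in wildtype mouse 2 on SCD and *Pax4* βiKO mouse 3. The lincRNA gene *Gm20649* overlaps it on the same strand at 0 to 11.9 and 0 to 27.8 expected counts in the 2 tables, so reads of the pair may have been divided between them. *Onecut1* and *Foxa1* did not pass the filter on low counts, which left 5 of the 7 members for testing by edgeR.

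None of the 5 tested members was called between genotypes. On SCD edgeR called 0 of 5 members, beside 0% of all 19137 genes tested. On HFD it again called 0 of 5, beside 2.28%, and for the interaction of genotype and diet 0 of 5, beside 0.131%. In none of these 3 comparisons did a member reach an unadjusted p under 0.05 by edgeR or by DESeq2, which fitted all 7 members and called 0. The median log2 fold change of the tested members was 0.10 on SCD and −0.02 on HFD, beside −0.00 and −0.01 for all genes.

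Between diets, 0 of 5 members was called in wildtype, beside 0.371% of all genes, and 0 of 5 in *Pax4* R192H mice, beside 15.7%. In each genotype 1 member, *Foxa2*, had an unadjusted p under 0.05 by edgeR and by DESeq2, which also called 0 members. By edgeR 15.2% of all genes did so in wildtype and 32.4% in *Pax4* R192H mice. In the contrast averaged over genotypes 0 of 5 members was called, beside 13.7% of all genes, with *Foxa2* as the 1 member under the adjusted threshold. The median of the members was 0.14 in wildtype and −0.02 in *Pax4* R192H mice, beside 0.01 and −0.06 over all genes. *Hnf4a* differed between diets by 0.28 in wildtype (interval −0.17 to 0.72) and by −0.12 in *Pax4* R192H mice (interval −0.57 to 0.33).

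**Figure D4:**
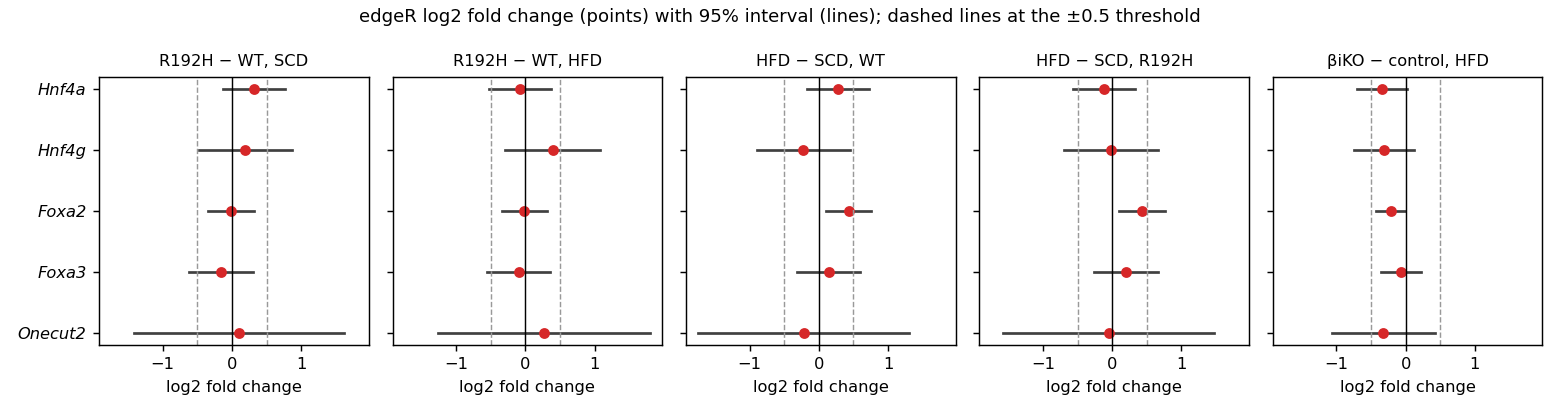
Log2 fold change (points) of the 5 tested members with 95% intervals (lines) in 5 comparisons, with dashed lines at the threshold of 0.5 in either direction. The intervals of *Foxa2* lie above 0 in both diet comparisons and just below 0 for *Pax4* βiKO against control, and those of *Onecut2* are the widest.

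In the second table the 5 tested members had log2 fold changes of −0.35 to −0.06 for *Pax4* βiKO against control islets, and none was called. *Foxa2* was at 50.1 and 46.7 CPM in the 2 controls and at 40.9, 39.6 and 44.7 CPM in the 3 *Pax4* βiKO mice. *Hnf4a* was at 22.9 and 18.3 CPM in controls and at 19.1, 14.9 and 14.7 CPM in *Pax4* βiKO mice. The groups of *Foxa2* did not overlap, which held for 32.6% of all genes tested in a comparison that called 0.0893% of them. Those of *Hnf4a* overlapped through *Pax4* βiKO mouse 1, which shares raised acinar markers with control mouse 1. The log2 fold change was −0.21 for *Foxa2* (SE 0.09, interval −0.42 to −0.01, adjusted p = 0.380) and −0.35 for *Hnf4a* (SE 0.16, interval −0.71 to 0.02, adjusted p = 0.408). The *Hnf4a* value was −0.29 with the acinar covariate and −0.53 with the intestinal covariate. It was −0.17 without control mouse 1 and −0.48 without *Pax4* βiKO mouse 1, the 2 libraries with raised acinar markers.

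*Hnf4g* was at 10.1 and 7.72 CPM in controls and at 6.66, 8.26 and 6.53 CPM in *Pax4* βiKO mice. *Onecut2* was at 5.17 and 3.68 CPM in controls and at 5.03, 3.02 and 2.58 CPM in *Pax4* βiKO mice. Both overlapped between the groups, and the highest *Onecut2* value of each group was in the mouse with raised acinar markers. Duct markers summed to 208 and 210 CPM in controls and to 258 to 319 CPM in *Pax4* βiKO mice, while their mean log2 CPM overlapped at 2.18 and 2.48 against 2.25 to 2.44. *Foxa3* was at 12.5 and 12.6 CPM in controls and at 13.0, 11.1 and 11.8 CPM in *Pax4* βiKO mice, also with overlap, and its log2 fold change was −0.06 (interval −0.35 to 0.22). For *Hnf4g* and *Onecut2* it was −0.32 (interval −0.75 to 0.12) and −0.32 (interval −1.07 to 0.42). Without control mouse 1 these became −0.11 and −0.059, and with the intestinal covariate that of *Onecut2* was −0.75. EdgeR called 0 of 5 members, beside 0.0893% of 20167 genes tested, with 1 member, *Foxa2*, at an unadjusted p under 0.05, as were 12.8% of all genes. DESeq2 called 0 of the 7 members it fitted, with 0 at an unadjusted p under 0.05. The median of the 5 was −0.32, beside 0.01 over all genes.

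The members were set beside 20 other transcription factors and cofactors of the same network. *Onecut3*, the remaining gene of the ONECUT family, was listed at 0 in 11 of 12 mice and in 5 of 5. Of the 20 genes 18 were tested in the first table, and 0 were called between genotypes on either diet, for the interaction, or between diets in either genotype, by edgeR and by DESeq2. At an unadjusted p under 0.05 edgeR gave 0 for SCD, 1 for HFD, 0 for the interaction, 3 for diet in wildtype and 2 for diet in *Pax4* R192H mice. The shares of all genes were 3.29%, 15.9%, 11.2%, 15.2% and 32.4%. In the averaged diet contrast 1 of the 18 was called, beside 13.7% of all genes. It was *Nr2f2*, a nuclear receptor of stromal and endocrine cells, at −1.23 (SE 0.39, adjusted p = 0.0381). Its level was highest in wildtype mouse 2 on SCD, at 3.57 CPM against 0.341 to 1.60 CPM in the other 11 mice, and without that mouse the value was −0.75 (adjusted p = 0.134). The summed level of 5 stromal markers was also highest in that mouse, at 242 CPM against 29.2 to 124 CPM in the other 11. It was 47.1 to 242 CPM on SCD and 29.2 to 56.1 CPM on HFD, and its part in the *Nr2f2* difference was not tested. With 1 mouse left out in turn *Nr2f2* did not pass in 9 of 12 fits. It also did not pass at −0.85 with the acinar covariate (adjusted p = 0.419), at −1.23 with the intestinal covariate (adjusted p = 0.0505) and at −1.21 without the 2 *Pax4* R192H mice of high intestinal markers (adjusted p = 0.0951).

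In *Pax4* βiKO islets 15 of 17 tested network genes had a fold below 0, with a median of −0.26 beside 0.01 over all genes, and 0 were called. Of the 17, 6 had an unadjusted p under 0.05 by edgeR, beside 12.8% of all genes, and DESeq2 had 5 and called 0. *Pdx1*, the factor downstream of FOXA2 whose promoter drives the Cre of this line, was among them at −0.37 (SE 0.07, adjusted p = 0.163). *Nkx2-2*, a homeodomain factor of β cells, was at −0.37 (SE 0.10, adjusted p = 0.264).

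Among 27 genes known to be bound or controlled by these factors in liver, gut or islets, 21 were tested in the first table and several moved in *Pax4* R192H islets on HFD while the members did not pass. Against wildtype on HFD, 3 were called higher and 1 lower, beside 1.46% and 0.82% of all genes. The list was chosen with earlier results of these data known, and the study itself reported *Slc2a2*, *Ttr* and *Gc* as changed. These counts are therefore a description and not a test of the list. *Slc2a2* (GLUT2) fell, from 701, 489 and 688 CPM in wildtype to 212, 243 and 319 CPM in *Pax4* R192H mice, with no overlap, as for 22.9% of all genes (−1.28, SE 0.19, adjusted p = 0.00588). *Ttr*, which encodes the thyroid hormone carrier transthyretin, rose from 783, 682 and 641 CPM to 1458, 1854 and 1392 CPM (1.16, SE 0.19, adjusted p = 0.00731). *Gc*, the vitamin D binding protein gene that is also an α cell marker, rose by 1.52 (SE 0.35, adjusted p = 0.0414), and the apolipoprotein gene *Apoa2* rose by 1.60 (SE 0.39, adjusted p = 0.0480) at a level of only 1.82 to 2.90 CPM. The median of the 21 was 0.19, beside −0.01 over all genes, with 12 above 0 and 9 below. DESeq2 called the same 4 genes and also *Cltrn* (0.64) and *Kcnj11*, a subunit gene of the β cell potassium channel (−0.54). It called 2.31% of the 39752 genes that it tested without the filter on low counts. With the acinar covariate none of the 4 passed (adjusted p = 0.459 to 0.657), with folds of −1.01 for *Slc2a2*, 1.06 for *Ttr*, 1.38 for *Gc* and 1.35 for *Apoa2*. That covariate did not overlap between the groups compared, so covariate and genotype cannot be told apart in this fit. Without the 2 mice of high intestinal markers the folds were 1.23 for *Ttr*, which remained called (adjusted p = 0.0378), and −1.13 for *Slc2a2*, 1.60 for *Gc* and 1.58 for *Apoa2*, which did not pass (adjusted p = 0.0609, 0.121 and 0.162). With the intestinal covariate *Slc2a2* (−1.20, adjusted p = 0.0216) and *Ttr* (1.17, adjusted p = 0.0279) remained called, and *Gc* (1.64, adjusted p = 0.0795) and *Apoa2* (1.75, adjusted p = 0.0982) did not pass. With 1 mouse left out, the highest adjusted p was 0.0428 for *Slc2a2*, 0.0541 for *Ttr*, 0.159 for *Gc* and 0.183 for *Apoa2*, and all 4 folds kept their direction. The *Ttr* value that did not pass was the one without wildtype mouse 3 on HFD.

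Between diets in *Pax4* R192H mice, 4 target genes were called higher and 2 lower, beside 9.75% and 5.91% of all genes, with a median of −0.18 beside −0.06 over all genes. This comparison shares the *Pax4* R192H mice on HFD with the preceding one. *Gc* rose by 2.53 (SE 0.36, adjusted p = 7.57e-04), *Apoa2* by 1.52 (adjusted p = 0.0169) and *Ttr* by 1.19 (adjusted p = 0.00121), and *Cltrn*, which encodes collectrin, a membrane glycoprotein of β cells, rose by 0.61 (adjusted p = 0.0208). *Slc2a2* fell by 1.34 on the log2 scale (adjusted p = 7.66e-04). With the acinar covariate none of the 6 passed (adjusted p = 0.123 to 0.389), with *Gc* at 2.34, *Ttr* at 1.08 and *Slc2a2* at −1.02, and without the 2 mice of high intestinal markers *Slc2a2*, *Ttr* and *Gc* remained called while *Apoa2* (1.27, adjusted p = 0.133) and *Cltrn* (0.64, adjusted p = 0.0951) did not pass. In wildtype mice 0 of the 21 were called between diets, with 3 at an unadjusted p under 0.05 by edgeR, beside 0.371% and 15.2% of all genes, and 0 called by DESeq2. In the averaged diet contrast *Gc* (1.73) and *Ttr* (0.74) were called higher and *Slc2a2* (−0.65) lower, which is 2 and 1 of 21 beside 7.09% and 6.58% of all genes. With the acinar covariate they were at 1.62, 0.68 and −0.48 and did not pass (adjusted p = 0.0532, 0.0758 and 0.167). The *Slc2a2* average joins 0.04 in wildtype with −1.34 in *Pax4* R192H mice. For the interaction edgeR called 0, with 7 at an unadjusted p under 0.05, beside 0.131% and 11.2% of all genes. DESeq2 called 2, *Slc2a2* at −1.38 and *Ttr* at 0.90, beside 0.782% of the 39752 genes that it tested without the filter on low counts. The difference of the diet effects between genotypes was therefore called by one tool and not by the other.

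On SCD 0 of 21 target genes were called between genotypes, with 4 at an unadjusted p under 0.05 by edgeR, beside 0% and 3.29% of all genes, and 0 called by DESeq2. Of those 4, the lipoprotein genes *Apoa1* and *Apob* were raised in *Pax4* R192H mouse 1, the library with the highest intestinal marker sum. *Apoa1* was at 34.0 CPM in that mouse and at 0 to 0.266 CPM in the other 5 mice on SCD. In *Pax4* βiKO islets edgeR called 0 of 19 tested target genes, with 8 at an unadjusted p under 0.05, beside 0.0893% and 12.8% of all genes. DESeq2 called 4, beside 0.646% of the 38704 genes that it tested without the filter on low counts. *Slc2a2* was at 1244 and 1182 CPM in controls and 651, 784 and 714 CPM in *Pax4* βiKO mice (edgeR −0.76, SE 0.11, adjusted p = 0.0924). *Gc* was at 302 and 320 CPM in controls and 762, 609 and 575 CPM in *Pax4* βiKO mice (1.06, SE 0.14, adjusted p = 0.0631). Neither gene overlapped between the groups, as for the 32.6% of all genes given for *Foxa2*, and whether they were called depended on the tool and the model. EdgeR with the acinar covariate called *Gc* (1.08, adjusted p = 0.0484) and not *Slc2a2* (−0.78, adjusted p = 0.0702). With the intestinal covariate it called neither *Gc* (0.91, adjusted p = 0.109) nor *Slc2a2* (−0.69, adjusted p = 0.167).

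**Figure D5:**
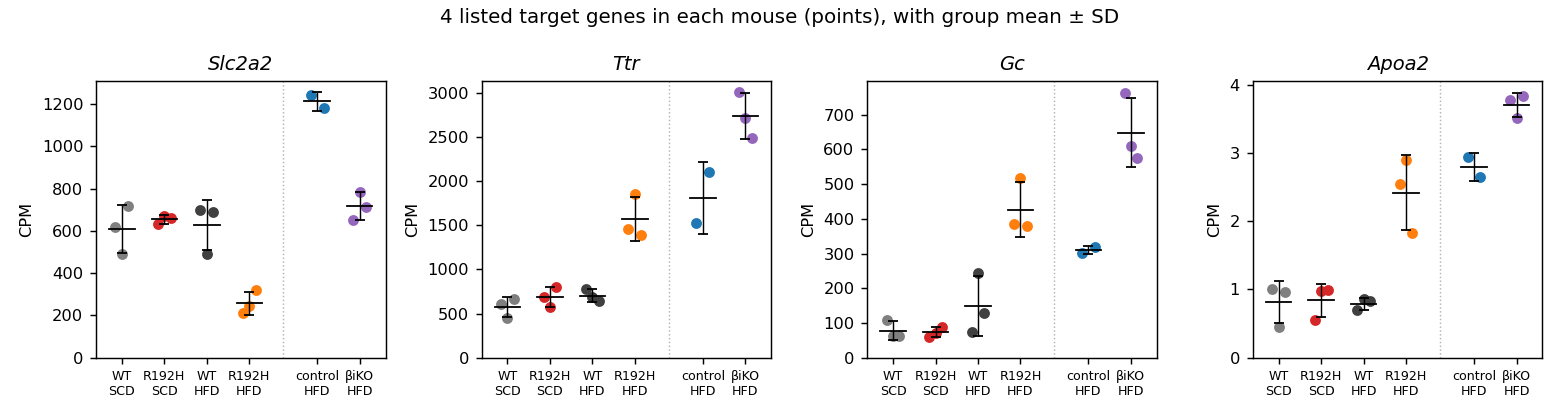
CPM of 4 listed target genes in every mouse (points), with group mean and SD; the dotted line separates the 2 tables. *Slc2a2* is at 212 to 319 CPM in the *Pax4* R192H mice on HFD and at 489 to 720 CPM in the other 9 mice of the first table, while *Ttr* is at 1392 to 1854 CPM against 454 to 804 CPM.

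The genes whose log2 CPM was most like a member's over the 12 mice of the first table are given as a description. The mice share diet, genotype, depth and the markers above, and among the 13151 named genes compared the gene ranked 3 for *Foxa2* had r = 0.95 where that ranked 100 still had 0.89. For *Foxa2* they were *Rac1* (Pearson r = 0.97), *Man2b1* (0.95) and *Dirc2* (0.95), of which *Rac1* also had r = 0.98 over the 5 mice of the second table while the other two had 0.34 and 0.11. For *Hnf4a* they were *Perm1* and *Fam83h* (0.82 each) and *2610507B11Rik* (0.81), with 0.89, 0.67 and 0.97 in the second table. *Hnf4g* was closest to *6230400D17Rik* (0.91), *Gstm2* (0.91) and *Itgb4* (0.82), with 0.096, 0.69 and 0.76 in the second table. *Foxa3* was closest to *Iars2* (0.89), *Sdr39u1* (0.88) and *Acad10* (0.88), with 0.32, 0.25 and −0.81 in the second table. *Onecut2* was closest to *Tenm4* (0.90), *Clmn* (0.88) and *Pcdhga2* (0.88), with 0.61, 0.66 and 0.35 in the second table. No member was among the nearest genes of another. Between members r was highest for *Hnf4g* with *Onecut2* (0.66), *Foxa2* with *Foxa3* (0.60) and *Hnf4a* with *Onecut2* (0.60), and *Foxa2* with *Hnf4a* had 0.10.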

How the data were processed

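Bulk RNA-seq of isolated islets from 17 male mice was read from 2 deposited tables. Both hold deposited expected counts, one row per gene and not scaled for depth. Per the submitters' processing notes, mm10 was the genome build, STAR 2.7.1 the aligner and RSEM 1.3.3 the tool that estimated these values, from total RNA libraries of a stranded kit. The values were rounded to whole numbers here. Groups followed the sample labels, and every column was mapped to a sample. Names and coordinates came from GENCODE M21 on GRCm38, which named 65.8% and 66.7% of the identifiers, and promoters from RefSeq.

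Comparisons were fitted under R 4.3.3 with the quasi-likelihood functions of edgeR 4.0.16 and tested by F-test, with TMM scaling, filterByExpr at a minimum count of 10 and 1 coefficient per group, fitted to all tested genes of a table. CPM used TMM library sizes, and log2 CPM a prior count of 2. Levels per kb used the union of exons. Intervals are 95% and use the total (residual and prior) degrees of freedom of the fit. DESeq2 1.42.0 was an alternative, and the scripts were tested on simulated data. Genes named were the 7 members, genes overlapping them, *Onecut3*, called network genes, up to 5 called target genes per direction, and the 3 named genes most correlated with each member of at least 1 CPM. Further names (*Pdx1*, *Nkx2-2*, *Kcnj11*, *Apoa1*, *Apob*, and *Slc2a2* and *Gc* in *Pax4* βiKO islets) were chosen after their values were seen. Some genes that the rule names are not reported here. Members and lists were chosen with earlier results of these data known. The averaged diet contrast and the fit without 2 mice were added after seeing the data.

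Equal replicate numbers were not treated as pairs. Between them, deviations from group means over all tested genes correlated at −0.296 to 0.193 in the first table and 0.038 to 0.073 in the second. Such values cannot exclude a batch shared by equal numbers for some genes. *Hnf4a* was highest in mouse 1 of every group. All 16 pairs of replicates differed by more than sampling noise (chi-square per degree of freedom 10.6 to 141). The labels number samples as biological replicates, and p-values measure the spread between them. Whether a sample held islets of 1 mouse or of several is not given in the sources used here, and "mouse" stands for a sample throughout.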

Additional observations from a re-analysis of the deposited data

How the results depend on the processing

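No member was called in any of the 6 planned comparisons under RLE size factors, without the 2 largest identifiers, with either filter on low counts or with DESeq2. The same held with a marker covariate, in a model of only the 2 groups and with the replicate block. It also held with any 1 mouse of the first table or any 1 *Pax4* βiKO mouse left out, so 0 remained 0. A fit without 1 control leaves 1 mouse in that group and is not counted here. *Onecut2* did not pass the stricter filter, at least 10 counts in every sample, in the first table and has no value there. In the added averaged diet contrast 1 member, *Foxa2*, was called without the 2 *Pax4* R192H mice of high intestinal markers, and with any 1 mouse left out its adjusted p was 0.0168 to 0.0442. The labels do not say whether equal replicate numbers mark a shared batch. With the replicate block the *Foxa2* value of that contrast was 0.43, and *Onecut2* on SCD turned to −0.15 between genotypes, as it did to −0.069 with the intestinal covariate. Among target genes on HFD, the block ended the genotype calls of *Gc* (1.57, adjusted p = 0.0775) and *Apoa2* (1.61, adjusted p = 0.110) at about the same folds. It also ended the *Nr2f2* call of the averaged diet contrast (−1.15, adjusted p = 0.0750). In *Pax4* βiKO it made calls of *Slc2a2* (−0.76, adjusted p = 0.0262), *Cltrn* (0.63, adjusted p = 0.0427) and *Gc* (1.13, adjusted p = 0.00672).

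Other signs turned without any call, and the cause was not tested. With the acinar covariate the genotype difference on HFD became −0.30 for *Hnf4g*, 0.20 for *Foxa2*, 0.045 for *Foxa3* and −0.37 for *Onecut2*, and the interaction −0.57 for *Hnf4g*, 0.24 for *Foxa2* and −0.50 for *Onecut2*. Without the 2 mice the HFD difference became 0.079 for *Foxa2* and −0.25 for *Onecut2*, and the interaction −0.072 for *Hnf4g*, 0.17 for *Foxa2* and −0.29 for *Onecut2*. With 1 mouse left out, signs turned within these ranges: on SCD *Hnf4g* −0.049 to 0.38, *Foxa2* −0.10 to 0.15 and *Onecut2* −0.14 to 0.51. On HFD the ranges were *Hnf4a* −0.26 to 0.048, *Foxa2* −0.094 to 0.063, *Foxa3* −0.22 to 0.013 and *Onecut2* −0.28 to 1.10. For the interaction they were *Hnf4g* −0.16 to 0.47, *Foxa2* −0.16 to 0.11, *Foxa3* −0.069 to 0.25 and *Onecut2* −0.38 to 0.99. For diet in wildtype they were *Foxa3* −0.033 to 0.28 and *Onecut2* −1.04 to 0.30, in *Pax4* R192H *Hnf4a* −0.26 to 0.066, *Hnf4g* −0.38 to 0.18 and *Onecut2* −0.59 to 0.35, and averaged *Onecut2* −0.55 to 0.13. The 5 folds in *Pax4* βiKO stayed below 0, with *Hnf4g* at −0.50 to −0.11 and *Onecut2* at −0.66 to −0.059, and that of *Foxa2* between diets in *Pax4* R192H stayed above 0, at 0.27 to 0.55. Some moves in other models were larger. With the intestinal covariate the *Pax4* βiKO fold was −0.75 for *Onecut2* and −0.53 for *Hnf4a*. With the acinar covariate the fold between diets in *Pax4* R192H was −0.82 for *Hnf4g* and −0.74 for *Onecut2*, and the averaged one −0.53 and −0.48. With the replicate block *Onecut2* was at −0.71 between diets in wildtype and 0.51 for the interaction.

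A model of only the 2 groups was not run for the interaction, which needs 4 groups, or for *Pax4* βiKO, whose table holds no others. Mean CPM with RLE size factors moved by less than 1 SD for all members and groups. By Spearman correlation, 1 of the 3 nearest genes remained for *Hnf4a*, 1 for *Hnf4g*, 1 for *Foxa3*, 0 for *Foxa2* and 0 for *Onecut2*. Groups of 2 or 3 mice limit what could be seen for *Onecut2* most, and *Foxa1* and *Onecut1* were too low for edgeR's filter.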
